A study of Mus musculus with 11 samples.

Results

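Calretinin (Calb2), calbindin (Calb1), parvalbumin (Pvalb), calcium-binding protein 1 (Cabp1) and Nell2 are genes used to tell subtypes of sensory neurons apart. All probe sets that the platform annotation gives to exactly 1 of these 5 genes were taken, which were 9 of the 21436 probe sets with a single symbol over both array types, or 5 of 13675 genes. Of the 5 probe sets on U74Av2, 2 were for Pvalb and the others for Calb2, Calb1 and Nell2. Of the 4 on U74Bv2, 2 were for Calb1 and the others for Cabp1 and Nell2. A filter on dim probe sets left 6 that were tested, 4 on U74Av2 and 2 on U74Bv2.

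The study compared mouse trigeminal ganglia, which hold the sensory neurons of the face, at embryonic day 13.5. Embryos were homozygous for a knockout of Brn3a (gene Pou4f1), heterozygous for it or wild-type, and 10 to 12 ganglia of a genotype were pooled for an array. U74Av2 had 2 knockout, 2 heterozygote and 2 wild-type arrays, and U74Bv2 had 2 knockout, 2 heterozygote and 1 wild-type array. The sources used here do not give the strain or the design of the allele. They do not say whether arrays of a genotype came from separate pools, or whether a pool went on both array types. A p-value thus measures the spread between arrays, which may be technical.

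Neurons keep free calcium low and read its rises through proteins with EF-hand loops. Calretinin, calbindin and parvalbumin are mainly buffers, which bind the ion and shorten its signal, while Cabp1 is a calmodulin-like sensor that regulates calcium channels and inositol trisphosphate receptors. Nell2 is different: it is a secreted neuronal glycoprotein with EGF-like repeats and a ligand of Robo receptors. In sensory ganglia, parvalbumin, calbindin and calretinin are classic markers of subsets of large, mostly mechanosensory or proprioceptive neurons.

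Member by member, Calb2 and Nell2 were higher in Brn3a knockout ganglia and Cabp1 was lower. Calb2 was 10.4-fold higher than in wild-type, Nell2 was 2.40-fold higher on U74Bv2, and Cabp1 was 4.49-fold lower. Calb1 and Pvalb passed no test. Nell2, the gene tested on both array types, lay higher in knockout on both, and Cabp1, which fell, was measured on U74Bv2 alone. Heterozygotes passed no test against wild-type for any member.

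**Figure D1:**
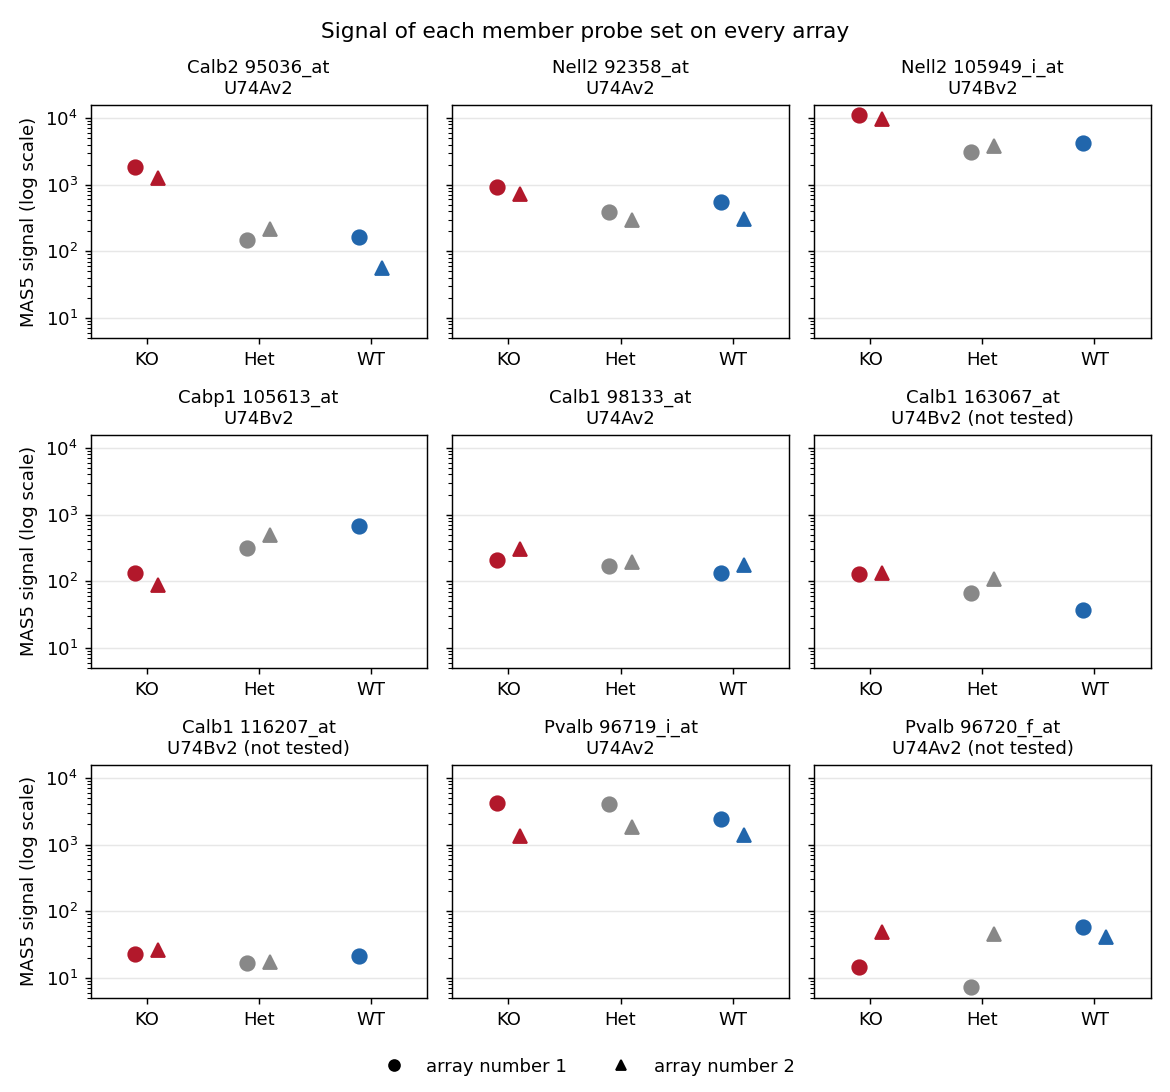
MAS5 signal (log scale) of each of the 9 member probe sets on every array, in knockout (KO), heterozygote (Het) and wild-type (WT) ganglia, with circles for array number 1 and triangles for number 2. Both knockout arrays lie above all others for Calb2 and for every Nell2 and Calb1 probe set, and below all others for Cabp1. The 2 Calb1 probe sets on U74Bv2 were too dim to be tested. The bright Pvalb probe set (96719_i_at) instead separates the array numbers. Of all tested probe sets, knockout did not overlap wild-type for 28.5% on U74Av2 and 70.2% on U74Bv2. Knockout did not overlap heterozygote for 27.8% and 38.1%.

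Calretinin had the widest change. The Calb2 signal on U74Av2 was 1838 and 1265 in the knockout arrays, 147 and 219 in the heterozygote arrays, and 165 and 56.8 in the wild-type arrays. Both knockout arrays were far above the other 4, and the heterozygote and wild-type arrays overlapped. The mean was 1552 ± 405 in knockout, 183 ± 50.8 in heterozygote and 111 ± 76.3 in wild-type ganglia (SD, n = 2 each). On the scale of log2(signal + pseudocount), which understates the change of dim probe sets, knockout minus wild-type was 3.38 ± 0.39 SE (95% interval 2.46 to 4.30, limma adjusted p = 0.0231). This was the fourth largest positive difference (rank 4 of 7453 tested probe sets). In pooled tissue, more neurons with calretinin and more calretinin RNA per neuron cannot be told apart.

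Against heterozygotes the Calb2 difference was 2.77 ± 0.39 (6.84-fold, interval 1.86 to 3.69, adjusted p = 0.0657), which missed the threshold of 0.05. With the array number as a block the adjusted p was 0.00925, a call. This comparison was called in 4 of 13 alternatives, among them the block and the larger pseudocount (adjusted p = 0.0269). Without a filter its adjusted p was 0.151. Heterozygote minus wild-type was 0.60 ± 0.39, with an interval of -0.31 to 1.52 (adjusted p = 1). With wild-type at 0 and knockout at 1 on the log2 scale, the heterozygote lay at 0.179 ± 0.106 SE. Calb2 was no longer called against wild-type with no filter on dim probe sets (adjusted p = 0.0575), and without heterozygote array 1, knockout array 1, knockout array 2 or wild-type array 2 (adjusted p = 0.0517, 0.256, 0.134 and 0.103), while the difference stayed between 2.32 and 3.88 under all 13 alternatives.

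Calbindin, a close relative of calretinin, passed no test. Its U74Av2 probe set had signals of 211 and 302 in knockout, 167 and 196 in heterozygote and 131 and 177 in wild-type ganglia. The knockout arrays lay above the others; knockout did not overlap wild-type for 28.5% of all tested probe sets, nor heterozygote for 27.8%. Knockout minus wild-type was 0.58 ± 0.28 (1.49-fold, interval -0.09 to 1.25, adjusted p = 1), knockout minus heterozygote 0.39 ± 0.28 (interval -0.28 to 1.06, adjusted p = 1) and heterozygote minus wild-type 0.19 ± 0.28 (interval -0.48 to 0.86, adjusted p = 1). The heterozygote lay at 0.323 ± 0.433 of the way to knockout, an error as wide as the value.

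On U74Bv2 both Calb1 probe sets were too dim to be tested. Probe set 163067_at had signals of 129 and 134 in knockout, 66.8 and 108 in heterozygote and 37.1 in wild-type ganglia, in the same order of genotypes as on U74Av2. Probe set 116207_at stayed between 16.9 and 26.1 on all 5 arrays, at the 5.79th percentile of mean level. Its order was different, with means of 24.6 in knockout and 17 in heterozygote and a wild-type signal of 21.3. Detection calls were not used here, so these low signals cannot be called absent.

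For parvalbumin, the tested probe set separated the array numbers, and no genotype difference was called. The bright Pvalb probe set, 96719_i_at, had signals of 4151 and 1330 in knockout, 4038 and 1808 in heterozygote and 2452 and 1412 in wild-type ganglia, numbers 1 and 2 in each case. Every number 1 array was above every number 2 array, and the genotypes overlapped. Number 1 minus number 2 was 1.61 in knockout, 1.14 in heterozygote and 0.78 in wild-type on the log2 scale, and their mean stood at the 99.1st percentile of the tested probe sets. The sources used here do not say what the number stands for.

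Knockout minus wild-type for this probe set was 0.33 ± 0.60 (interval -1.07 to 1.74, adjusted p = 1) and knockout minus heterozygote -0.19 ± 0.60 (interval -1.60 to 1.21, adjusted p = 1). Heterozygote minus wild-type was 0.53 ± 0.60 (interval -0.88 to 1.93, adjusted p = 1). These intervals are wide enough to hold more than a doubling in either direction for the knockout, and the sign turned when single arrays were left out. They come from the fit without the array number, and leaving out 1 array leaves its genotype with a single number. With the number as a block, neither knockout difference was called (adjusted p = 0.493 against wild-type and 0.737 against heterozygote). The other probe set, 96720_f_at, designed from the same accession, was not tested: its signals were 14.8 and 48.4 in knockout, 7.20 and 45.7 in heterozygote and 58.0 and 40.6 in wild-type ganglia. The pair thus disagreed in level, at the 94.4th and the 17.7th percentile, and suffixes _i_at and _f_at mark incomplete and family probe sets. Markers of skeletal muscle, another tissue known for parvalbumin, had a summed signal of 2868 to 3733 in knockout, 2692 to 3365 in heterozygote and 2696 to 3439 in wild-type arrays over 12 of 12 genes, and 0 of 8 tested were called. Their part in the Pvalb signal was not tested.

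Cabp1, the sensor, was the member that fell. Its U74Bv2 signal was 135 and 88.4 in knockout, 316 and 493 in heterozygote and 668 in the wild-type ganglia. Both knockout signals were below about 172, the mean level at or under which probe sets were not tested. Cabp1 thus passed the filter through its heterozygote and wild-type arrays. The 3 genotypes did not overlap, with heterozygotes in between. Of all tested probe sets, 70.2% showed no overlap of knockout with the single wild-type array, 38.1% none of knockout with heterozygote and 64.5% none of heterozygote with wild-type. Knockout minus wild-type was -2.17 ± 0.36 SE (interval -2.99 to -1.35, adjusted p = 0.0292), the 16th lowest of 7446 tested probe sets (rank 16). Knockout minus heterozygote was -1.48 ± 0.29 (2.79-fold lower, interval -2.15 to -0.81, adjusted p = 0.0480).

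The heterozygote lay at 0.317 ± 0.137 SE of the way from wild-type to knockout for Cabp1. Its own difference from wild-type, -0.69 ± 0.36, was not called (interval -1.51 to 0.13, adjusted p = 1) and rests on 1 wild-type array. Without an intensity trend, with a filter at the 20th percentile and without a filter, knockout minus wild-type was not called (adjusted p = 0.0511, 0.0561 and 0.128). The call of knockout against heterozygotes was lost under the same settings, with the larger pseudocount, and without heterozygote array 2, knockout array 2 or wild-type array 1. It was held in 5 of 12 alternatives (adjusted p from 0.00383 to 0.188).

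Cabp1 has 2 annotated start sites in RefSeq (GRCm38.p6, minus strand). The 250 bases before each are shown because this is the gene that lost signal and a reader may look for a Brn3a site there. Capitals mark the motif GGGCGG, a GC box. The windows are chr5:115194382-115194631 for the outer start and chr5:115186122-115186371 for the inner start.
Cabp1 outer start: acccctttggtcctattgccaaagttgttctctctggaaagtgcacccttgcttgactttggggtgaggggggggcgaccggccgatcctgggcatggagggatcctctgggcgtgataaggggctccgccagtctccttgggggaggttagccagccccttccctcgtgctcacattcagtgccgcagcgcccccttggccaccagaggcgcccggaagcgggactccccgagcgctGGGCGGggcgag
Cabp1 inner start: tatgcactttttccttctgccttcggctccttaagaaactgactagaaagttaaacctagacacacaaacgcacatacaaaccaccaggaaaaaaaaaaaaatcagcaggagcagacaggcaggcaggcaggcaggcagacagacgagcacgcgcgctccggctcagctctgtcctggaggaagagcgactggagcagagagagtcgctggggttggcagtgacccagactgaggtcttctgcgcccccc
Both strands were searched for ATAATTAAT, a sequence bound by Brn3 proteins in published work, for its core TAATTA, which overlaps it, and for the octamer ATGCAAAT of POU factors. None of these letters occurred in either window, and they occur in 0.259%, 4.84% and 1.60% of 32851 windows of the same length. GGGCGG occurred once before the outer start and in 32.7% of all windows. The outer window had a GC content of 66.0% and the inner one of 54.4%, with a median of 52.4% over all windows. The sources used here do not say which of the starts the probe set reports on.

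Nell2 was higher in knockout on both array types. On U74Bv2, where it was among the brightest transcripts (99.5th percentile of mean level), its signal was 10900 and 9735 in knockout, 3116 and 3843 in heterozygote and 4272 in wild-type ganglia. Both knockout arrays stood above the rest, and both heterozygotes below the wild-type array. Of all tested probe sets, 70.2% showed no overlap of knockout with the single wild-type array and 38.1% none of knockout with heterozygote. Heterozygote did not overlap wild-type for 64.5%. Knockout minus wild-type was 1.26 ± 0.23 SE (2.40-fold, interval 0.73 to 1.79, adjusted p = 0.0422), and knockout minus heterozygote was 1.56 ± 0.19 (2.95-fold, interval 1.13 to 1.99, adjusted p = 0.00574), the 13th largest positive difference of 7446 (rank 13). The call against heterozygotes held under all 12 alternatives run. Without an intensity trend, with a filter at the 20th percentile and without a filter, the difference from wild-type was not called (adjusted p = 0.114, 0.0696 and 0.165). This probe set (105949_i_at) is of the incomplete type.

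The U74Av2 probe set for Nell2, 92358_at, of regular design, gave signals of 930 and 736 in knockout, 383 and 300 in heterozygote and 542 and 309 in wild-type ganglia. Knockout arrays again lay above all others, and heterozygote and wild-type overlapped. Of all tested U74Av2 probe sets, knockout did not overlap wild-type for 28.5%, nor heterozygote for 27.8%. The Nell2 differences were 0.93 ± 0.30 against wild-type (1.90-fold, interval 0.21 to 1.64, adjusted p = 0.700) and 1.17 ± 0.30 against heterozygote (2.26-fold, interval 0.46 to 1.89, adjusted p = 0.435). Neither was called, although their unadjusted p-values were 0.0181 and 0.00607. With the array number as a block both were called, at adjusted p = 0.0498 against wild-type and 0.0225 against heterozygote. The block was the only 1 of 13 alternatives that called either of them. The U74Av2 and U74Bv2 arrays were scaled separately, so the sizes of the 2 probe sets are given side by side without a test.

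For Nell2 the heterozygote did not stand between the other genotypes. It lay at -0.238 ± 0.215 SE on U74Bv2 and at -0.264 ± 0.377 on U74Av2, that is on the far side of wild-type. Heterozygote minus wild-type was -0.30 ± 0.23 on U74Bv2 (interval -0.83 to 0.23, adjusted p = 1) and -0.24 ± 0.30 on U74Av2 (interval -0.96 to 0.47, adjusted p = 1), so a fall below wild-type was not shown. Without wild-type array 1 the U74Av2 value was 0.11.

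**Figure D2:**
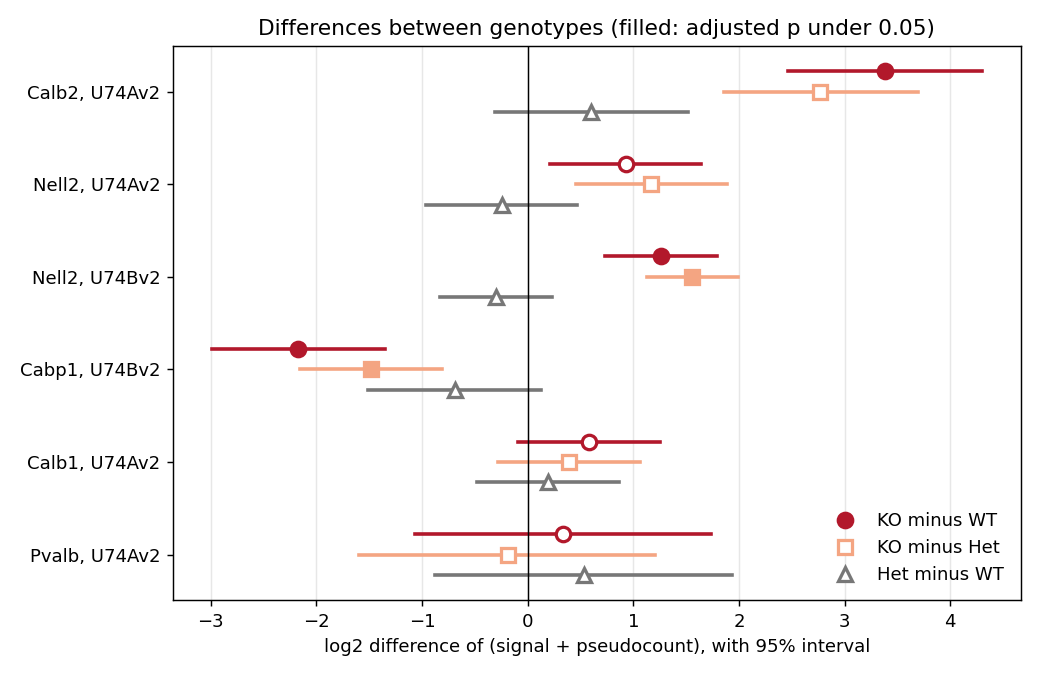
Log2 differences of (signal + pseudocount) between genotypes for the 6 tested member probe sets, with 95% intervals from the limma fit and filled symbols for an adjusted p under 0.05. All heterozygote against wild-type intervals cross 0, and only Cabp1 lies to the left for knockout against both other genotypes.

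In counts, 1 of 4 tested members on U74Av2 was called higher in knockout than in wild-type (Calb2) and 0 lower, where 0.255% of all 7453 tested probe sets were called. Their median difference was 0.75, against 0.02 over all tested probe sets. On U74Bv2, 1 of 2 was called higher (Nell2) and 1 lower (Cabp1), where 1.4% of 7446 were called, and the median was -0.45, against 0.02 overall. Against heterozygotes 0 of 4 were called on U74Av2, with 2 at an unadjusted p under 0.05 (of all probe sets 0.188% were called and 5.25% had such a p), and 2 of 2 on U74Bv2 (1.71% of all called). Both comparisons use the same knockout arrays. Between heterozygote and wild-type limma called none of the 4 and none of the 2, and none (0%) of all probe sets, with 52 and 283 of all probe sets at an unadjusted p under 0.05 and 0 members among them. As the members were picked with earlier results of these arrays known, these counts describe the genes and are no test of the group.

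The other calcium-binding proteins are given by family. Of 4 other neuronal calcium sensors tested on U74Av2 none passed against wild-type (median 0.00), with Hpcal1 at -0.35 ± 0.25 (a family probe set), Hpcal4 at 0.36 ± 0.25, Hpca, hippocalcin, at 0.66 ± 0.25 and Ncs1 at -0.66 ± 0.33 (adjusted p = 1). Of 5 on U74Bv2 none passed (median -0.01), with the potassium channel partner Kcnip3 at -0.01 ± 0.20, Ncs1 at 0.07 ± 0.20 and Kcnip1 at -0.46 ± 0.20. In the calmodulin family 1 of 11 listed genes was tested on each array type. On U74Av2 this was Calm2, at 0.29 ± 0.23 and not called. On U74Bv2 it was Cabp1 itself, so no relative of Cabp1 was tested beside it. Of 5 S100 proteins on U74Av2 none passed (median 0.00), with S100a10 at -0.27 ± 0.23, S100a14 at 0.00 ± 0.32 and S100a13 at 0.22 ± 0.34. Of 8 calcium-binding proteins of the endoplasmic reticulum none passed (median 0.29), with the chaperones Hsp90b1 at 0.25 ± 0.19 and Canx, calnexin, at -0.34 ± 0.34, and Calu, calumenin, at 0.35 ± 0.20. On U74Bv2 none of 1 S100 protein and none of 2 reticulum proteins passed.

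Calcium channels and transporters completed the comparison. The 5 channel subunits tested on U74Bv2 had a median difference from wild-type of -0.52, with 4 of 5 negative, and from heterozygote of -0.26, also with 4 of 5 negative. Of these, Cacna2d2, an auxiliary alpha2delta subunit, fell, with signals of 2291 and 2259 in knockout, 5640 and 5637 in heterozygote and 5480 in wild-type ganglia (log2 difference from wild-type -1.25 ± 0.20, adjusted p = 0.0245). Its heterozygote value was 0.04 ± 0.20 from wild-type. The related subunit Cacna2d1 fell against heterozygotes on U74Bv2 (-1.0 ± 0.19, adjusted p = 0.0400), and its differences from wild-type were -0.86 ± 0.24 there (adjusted p = 0.174) and -1.01 ± 0.23 on U74Av2 (adjusted p = 0.314). Of 5 channel subunits on U74Av2 none passed (median -0.02), with the pore subunits Cacna1b at 0.03 ± 0.30 and Cacna1c at 0.13 ± 0.26 and the auxiliary Cacna2d3 at -1.42 ± 0.56. Of 8 pumps, exchangers and release channels on U74Av2 none passed (median -0.25), with the pumps Atp2c1 at -0.38 ± 0.29 and Atp2a2 at -0.11 ± 0.45 and the exchanger Slc8a1 at -0.11 ± 0.32. Of 3 on U74Bv2 none passed (median -0.51), namely the plasma membrane pumps Atp2b1 at -0.54 ± 0.23 and Atp2b4 at -0.51 ± 0.22 and the inositol trisphosphate receptor Itpr3 at 0.03 ± 0.19. Over all of these lists without the members, 0 of 31 genes on U74Av2 and 1 of 16 on U74Bv2 were called in knockout against wild-type. Of all tested probe sets 0.255% and 1.4% were called, so 0 calls in a list says little about its genes. Their median difference was 0.0 on U74Av2 and -0.40 on U74Bv2, where 11 of 16 were negative, against 0.02 over all tested probe sets of either type. Against heterozygotes 0 of 31 and 2 of 16 were called (of all probe sets 0.188% and 1.71%). The medians were -0.04 and -0.29, against 0.02 over all.

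**Figure D3:**
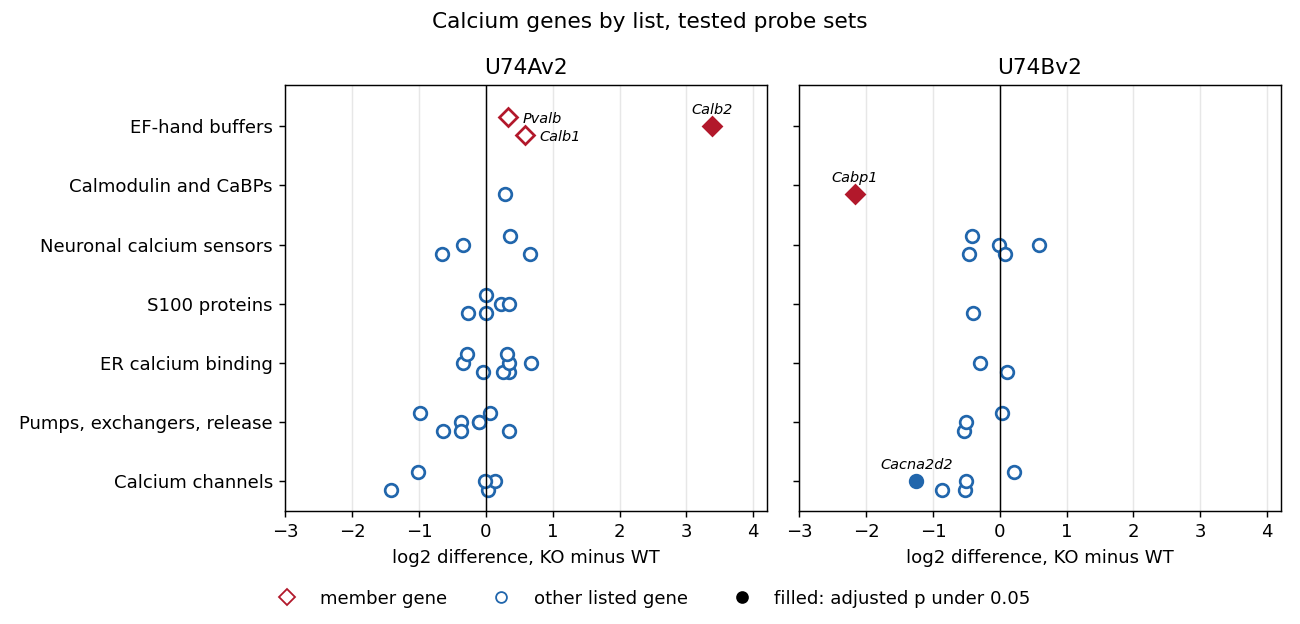
Log2 difference of knockout minus wild-type for each tested gene of the 7 calcium lists, 1 probe set per gene, with red diamonds for the member genes and filled symbols for an adjusted p under 0.05. Calb2 (3.38) and Cabp1 (-2.17) lie farthest from 0, Cacna2d2 (-1.25) is the other gene called, and Nell2 is in none of these lists.

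Receptors and subtype markers related to the members were also read. Robo1, a guidance receptor of the family that Nell2 binds, had signals of 312 and 481 in knockout, 260 and 128 in heterozygote and 140 and 210 in wild-type ganglia (0.98 ± 0.37, adjusted p = 0.850). The Robo3 and Nell1 probe sets were too dim to be tested. Among sensory subtype markers Runx1, a factor of nociceptors, was the 1 gene called of 7 on U74Av2 (-2.06 ± 0.21, adjusted p = 0.0152) and the 1 of 6 on U74Bv2 (-2.33 ± 0.22, adjusted p = 0.00317), where 0.255% and 1.4% of all probe sets tested were called. The median marker difference on U74Av2 was -0.67 from wild-type (5 of 7 negative) and -0.76 from heterozygote (6 of 7 negative). On U74Bv2 it was -0.31 from wild-type (4 of 6 negative) and 0.31 from heterozygote (2 of 6 negative). On U74Av2 Nefh, the heavy neurofilament of large neurons, stood at -0.98 ± 0.24 from wild-type (adjusted p = 0.385). The coreceptor Gfra3 stood at -0.67 ± 0.22 there (adjusted p = 0.700). The transcription factor Maf was at -1.13 ± 0.40 on U74Av2 (adjusted p = 0.777). Its brighter U74Bv2 probe set was at -0.59 ± 0.25 (adjusted p = 0.408). Positive on U74Av2 were Tac1 at 0.64 ± 0.43 and Gfra2 at 0.04 ± 0.25, with Gfra2 at 0.37 ± 0.25 on U74Bv2. Also on U74Bv2, the neurotrophin receptor Ntrk2 was at 0.90 ± 0.22 (adjusted p = 0.132). Runx3, a factor of proprioceptors, was at -0.31 ± 0.41 there (adjusted p = 0.878). The U74Av2 probe set of Ret, a receptor tyrosine kinase of nociceptors and mechanoreceptors, was too dim to be tested and had signals of 30.2 and 34.1 in knockout, 188 and 268 in heterozygote and 173 and 185 in wild-type ganglia. The knockout arrays lay below all others. These markers were chosen with published work on this mutant known.

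The genes whose signal across arrays was most like that of a member are given as a description, by Pearson correlation of log2 values over the 6 U74Av2 or 5 U74Bv2 arrays, which share hybridisations. For Calb2 they were Htr3a (r = 0.989), Six2 (0.972) and Msc (0.971). For Cabp1 they were Kcna2 (0.991), Ttll7 (0.989) and Camk2d (0.987), which had smaller differences of -1.05, -1.09 and -1.0 from wild-type. For Nell2 on U74Bv2 they were Ntm (0.999), Neurod1 (0.992, an incomplete probe set) and Rnd3 (0.988). On U74Av2 Nell2 was nearest to Prp2 (0.973), Clu (0.968) and Eya2 (0.961). The Prp2 probe set is of relaxed design, and that of Clu is a family probe set. Calb1 was nearest to Csrp1 (0.994), Gadd45a (0.977) and Lmo4 (0.963), and Pvalb to Jund (0.990), Kdelr2 (0.987) and Ap2b1 (0.987). The last 3 had differences between genotypes of only 0.24, 0.11 and 0.12 in knockout minus wild-type.

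The tissue labels and cell makeup were checked with marker genes. Pou4f1, the targeted gene, had signals of 550 and 904 in knockout, 2196 and 3570 in heterozygote and 3313 in wild-type ganglia on U74Bv2 (knockout minus wild-type -2.15, adjusted p = 0.0245). Heterozygote minus wild-type was -0.24 (adjusted p = 1), with 1 heterozygote array above the wild-type one, so this gene did not separate those genotypes, and it was read on U74Bv2 alone. Neuronal markers were bright, with a summed U74Av2 signal over 10 of 10 genes of 62909 to 66991 in knockout, 70281 to 86675 in heterozygote and 62910 to 65146 in wild-type arrays, and 0 of 10 called. Knockout minus heterozygote was negative for 9 of these 10 genes (median -0.21), and knockout minus wild-type for 5 (median -0.02). The part of neuronal content in the member results was not tested. Schwann and satellite glia markers summed to 20034 to 23024 in knockout, 17739 to 19813 in heterozygote and 15988 to 17177 in wild-type arrays over 7 of 10 genes, and connective tissue markers to 12279 to 13677 in knockout, 10426 to 11120 in heterozygote and 9473 to 11029 in wild-type arrays over 9 of 9. Both sums were thus higher in both knockout arrays, with 0 of 6 and 0 of 8 tested markers called and none at 0, and their part in the Calb2 and Nell2 results was not tested. On U74Bv2 the 1 measured glia marker, Sox10, had signals of 3082 and 4517 in knockout, 2863 and 3063 in heterozygote and 2904 in wild-type ganglia, and its part in the Nell2 and Cabp1 results was not tested. The 5 neuronal markers measured there summed to 46153 to 54176 in knockout, 49033 to 53017 in heterozygote and 54042 in wild-type arrays. Central nervous system markers overlapped between genotypes (1085 to 1198 in knockout, 894 to 1182 in heterozygote and 858 to 1113 in wild-type arrays, over 11 of 12 genes), and 0 of 5 endothelial, 0 of 2 macrophage and 0 of 1 cartilage and bone markers tested were called on U74Av2. Red blood cell markers summed to 43419 to 52934 in knockout, 39611 to 57981 in heterozygote and 32666 to 36951 in wild-type arrays over 6 of 7 genes, none at 0. Their median difference from wild-type was 0.38 with 0 of 5 tested markers called, and their part in the results was not tested.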

How the data were processed

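The deposited values are microarray intensities, 1 linear signal per probe set, which the authors made with MAS5 (named in the submitters' processing notes, per the labels). The sources used here give neither version nor scaling target. Trimmed means (2% off each end) of 500.26 to 500.29 on U74Av2 and 497.61 to 498.38 on U74Bv2 showed a common scale, so none was applied. The number of arrays limits the precision.

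The log2(signal + pseudocount) scale used pseudocounts of 50.0 (U74Av2) and 49.8 (U74Bv2), 0.1 of the mean trimmed mean. Controls and probe sets at or below the 40th percentile of mean level (signal of about 124 and 172) were not tested. limma 3.58.1 (R 4.3.3) took all arrays of a type in 1 fit with genotype as factor and an eBayes trend, two-sided, with Benjamini-Hochberg adjustment over 7453 or 7446 probe sets; calls are at an adjusted p under 0.05. The lone wild-type U74Bv2 array was assumed to vary like the other genotypes. The fit was tested on simulated data. These had independent noise on each array and no effect of the array number. Heterozygote positions carry delta-method errors.

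Symbols came from the platform annotation, updated through RefSeq (GRCm38.p6, names only), and 0 changed. The members and lists were chosen with earlier results of these data known. All member probe sets are named. Of each list, genes called (up to 6) or otherwise the brightest 3 are candidates for naming, with further genes picked for their known role after their values were seen, and the 3 nearest genes per member come from probe sets with a log2 range of at least 1. Alternatives covered pseudocount, filter, quantile normalization, trend, replicate block and leaving out each array. Genotypes share array numbers, and no label says what a number marks. Differences between numbers 1 and 2 correlated over probe sets in all 3 genotype pairs on U74Av2 (r = 0.533 to 0.619) and in the 1 pair on U74Bv2 (r = 0.103), so blocked values stand beside the U74Av2 results whose call they change. Plots used matplotlib 3.10.9.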

Additional observations from a re-analysis of the deposited data

How the results depend on the processing

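The sign of the member differences was kept under nearly all alternatives, while calls near the threshold moved. Of 331 member values under alternatives, 8 turned their sign, 6 of them from probe sets tested in the fit as reported. Those 6 were Pvalb 96719_i_at (between -0.47 and 1.14 against wild-type with single arrays left out, -1.0 and 0.61 against heterozygote, and -0.04 and 1.10 for heterozygote against wild-type) and Nell2 92358_at for heterozygote against wild-type (-0.60 to 0.11). The other 2 were of the untested Pvalb 96720_f_at, whose difference from heterozygote, 0.11, became -0.26 without heterozygote array 1 and -0.19 without knockout array 2. For knockout against wild-type on U74Av2 the number of called members, 1 in the fit as reported, was 0 without a filter, where more probe sets enter the adjustment, and 0 to 1 with single arrays left out. Against heterozygotes, with 0 as reported, it was 1 with the larger pseudocount and 0 to 1 with single arrays left out. On U74Bv2 the 2 called members against wild-type became 0 without an intensity trend, 0 with the 20th percentile filter and 0 without a filter. Against heterozygotes the 2 became 1 without a trend, 1 with the 20th percentile filter, 1 without a filter, 1 with the larger pseudocount and 1 to 2 with single arrays left out. Where the filter did not change, the cause was not tested. Without the wild-type U74Bv2 array its comparisons could not be run.

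The arrays shared the numbers 1 and 2 between genotypes, with no label that says what a number marks. With the number as a replicate block, 2 members were called against wild-type on U74Av2 (Calb2, and Nell2 at an adjusted p of 0.0498) and 2 against heterozygotes (Calb2 at 0.00925 and Nell2 at 0.0225), and no other member call changed. Over all probe sets the block gave 130 in place of 19 calls and 129 in place of 14 on U74Av2, and 216 in place of 104, 317 in place of 127 and 7 in place of 0 on U74Bv2, where 1 residual degree of freedom was left. Without a filter 21 and 54 were called on U74Bv2, without a trend 40 and 81, and 56 against wild-type with the 20th percentile filter. With single arrays left out, U74Av2 gave 0 to 5 calls wherever an array of the comparison was dropped, and U74Bv2 up to 178 against wild-type, and up to 10 for heterozygote against wild-type.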
